A study of Mus musculus with 2 samples.

Results

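The genes described here are 33 genes of glucose uptake, glycolysis, lactate handling and the response to low oxygen, measured in single cells of the injured mouse liver. They were taken by symbol from the gene tables of 2 deposited libraries, which hold the same 27998 rows, and all 33 were found. RNA was counted per cell in 1 library of wild-type C57BL/6 mice and 1 library labelled yap1, in which a floxed Yap1 gene is deleted by Cre expressed from the Lyz2 locus, a gene active in myeloid cells. Both groups had received carbon tetrachloride, a liver toxin used to cause fibrosis, 4 times, each library was a sample from 3 mice, and both held the liver's nonparenchymal cells, which stay in suspension when a slow spin pellets most hepatocytes. Yap1 is a growth-regulating cofactor of transcription held in check by Hippo signalling. The labels do not state the ages of the mice, and untreated livers were not analysed here.

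Glycolysis splits glucose into pyruvate in a chain of enzymes, of which hexokinase and phosphofructokinase are the main control points, and lactate dehydrogenase turns pyruvate into lactate, which leaves the cell through monocarboxylate transporters. When oxygen is low, the prolyl hydroxylases that mark the transcription factor HIF-1 alpha for destruction slow down, and the factor accumulates and raises the genes of glucose uptake and glycolysis together with a set of stress genes. Much of this control acts on the HIF-1 alpha protein, so the RNA level of Hif1a does not measure the activity of the pathway. In the liver, neutrophils and inflammatory macrophages are known for their glycolytic metabolism, while hepatocytes both use and make glucose.

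The wild-type library held 5269 cell barcodes and 30386545 counts of unique molecules (UMIs), and the yap1 library held 4731 barcodes and 34234353 UMIs. After filters, 4653 and 3983 cells remained, of which 4291 and 3727 were placed by marker genes in a class, and 12 classes had at least 50 cells in each library. A class name here means cells that carry its markers (Kupffer-like and so on). Each of the 11 classes with a marker list had 3 to 8 of its own markers and 0 markers of another list among its 10 leading genes, and none of the 33 genes was among those. Because cells were placed by these same markers, the marker counts follow largely from the gate and do not check the class names. The remaining class, the monocyte-macrophage intermediates, holds cells that scored alike for 2 of the monocyte and macrophage lists. Levels are given as UMIs per 1000000 UMIs of the class (CPM), and 95% intervals cover counting error only. With 1 library per genotype there is no test of the genotype, and a difference between the libraries cannot be told apart from a difference between 2 preparations. The 2 libraries shared 5 barcodes. Yap1 itself was nearly absent from the myeloid classes, with 0 to 2 UMIs per class and library in Kupffer cells, monocytes, macrophages and neutrophils, so its deletion there could not be checked. In sinusoidal endothelial cells, which are not of the myeloid lineage, Yap1 was at 67.8 CPM in the wild-type and 69.3 CPM in the yap1 library. Lyz2 was lower in the yap1 library in all 12 classes, for example 26583 and 14267 CPM in classical monocytes. Hepatocyte markers summed to 108979 and 101648 CPM in hepatocytes and to between 49.0 and 621 CPM in the other classes, so a low level of hepatocyte RNA was counted in every class.

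The 33 genes together made up between 0.207% and 0.706% of all UMIs of a class. Hepatocytes stood highest, with 0.647% in the wild-type and 0.706% in the yap1 library, followed by neutrophils with 0.575% and 0.574%. The hepatocyte barcodes were the shallowest of the 12 classes, with median depths of 1395 and 1547 UMIs. Their median share of mitochondrial UMIs was 0.93% and 0.33%, against 8.50% and 9.90% in endothelial cells and 0.41% and 0.33% in neutrophils. Whether they were intact hepatocytes was not tested. B cells were lowest, with 0.210% and 0.207%, and plasmacytoid dendritic cells were close to them, with 0.227% in both libraries. The class in which a gene was highest was the same in both libraries for 27 of the 33 genes. Of these, 8 were highest in neutrophils, 7 in hepatocytes, 6 in sinusoidal endothelial cells, 2 in classical monocytes and 2 in monocyte-derived macrophages, and 1 each in plasmacytoid and type 2 conventional dendritic cells. For most of the 27, the interval of the highest class overlapped that of another class in at least 1 library. They include Eno2, highest in monocyte-derived macrophages, with 6 and 7 UMIs over all 12 classes, and Egln3, with 88 and 82. The 6 genes whose highest class differed were Hk3, Pfkp, Aldoc, Hif1a, Pdk1 and Ankrd37. Across the 12 classes, Spearman's rho between the libraries ran from 0.54 for Pfkl to 0.99 for Mif, with a median of 0.92, as a description of classes that share a preparation within each library.

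**Figure D1:**
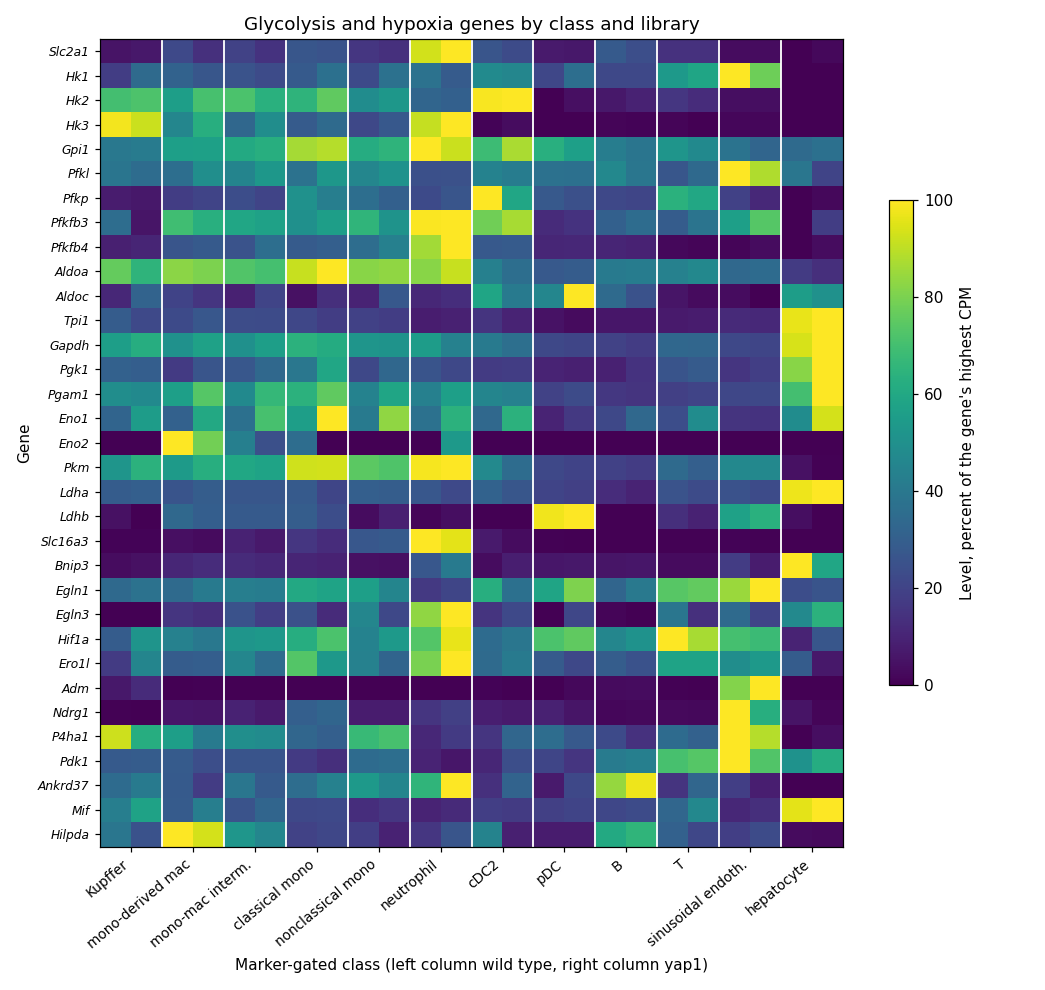
Level of each of the 33 genes (rows) in the 12 marker-gated classes (columns, wild type left and yap1 right within each class), as a percentage of that gene's highest CPM. Neutrophils, hepatocytes and sinusoidal endothelial cells each hold a separate block of bright genes, and 27 of 33 genes are brightest in the same class in both libraries.

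Glucose uptake and its first step differed sharply between classes. Slc2a1, the glucose transporter GLUT1, was at 153 CPM in wild-type and 164 CPM in yap1 neutrophils. The next class held 46.3 CPM in the wild-type library (B cells) and 41.8 CPM in the yap1 library (classical monocytes), and the intervals of neutrophils lay clear of all other classes in both libraries. Sinusoidal endothelial cells had only 8 and 5 UMIs (5.32 and 5.17 CPM).

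The 3 hexokinase genes, which trap glucose inside the cell, were used in different proportions. Hk1, the widely expressed form, gave 94.7% and 93.1% of the hexokinase UMIs of sinusoidal endothelial cells and 79.2% and 85.3% of those of T cells. In plasmacytoid dendritic cells it gave 100% and 92.3%, from only 17 of 17 and 24 of 26 UMIs. Hk3, a form found mainly in myeloid cells, gave 68.7% and 74.3% in neutrophils and 67.4% and 60.8% in Kupffer cells. Hk2, the form that is raised by growth and hypoxia signals, gave 60.3% and 60.0% in type 2 conventional dendritic cells and 40.7% and 39.1% in classical monocytes. Monocyte-derived macrophages held all 3, with Hk3 at 48.3% and 54.0%. Hepatocytes had 0 UMIs of each of the 3 genes in both libraries, where a count of 3 would correspond to 10.8 and 9.88 CPM.

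Phosphofructokinase, the committed step, also changed its makeup. Of the 2 subunit genes measured, Pfkp, the platelet type, gave 85.5% and 81.4% of the UMIs in T cells and 84.8% and 77.8% in type 2 conventional dendritic cells. Pfkl, the liver type, gave 67.4% and 75.3% in sinusoidal endothelial cells. In Kupffer cells it gave 67.6% and 68.8%, from only 23 of 34 and 11 of 16 UMIs. The intervals there were wide, 49.5% to 82.6% and 41.3% to 89.0%. Pfkfb3 and Pfkfb4 make and degrade fructose 2,6-bisphosphate, the activator of phosphofructokinase. Pfkfb4 was at 84.8 and 98.7 CPM in neutrophils, clear of the next class, nonclassical monocytes at 35.4 and 42.9 CPM. Pfkfb3 was also highest in neutrophils, at 36.3 and 36.5 CPM, but its intervals there overlapped those of other classes.

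**Figure D2:**
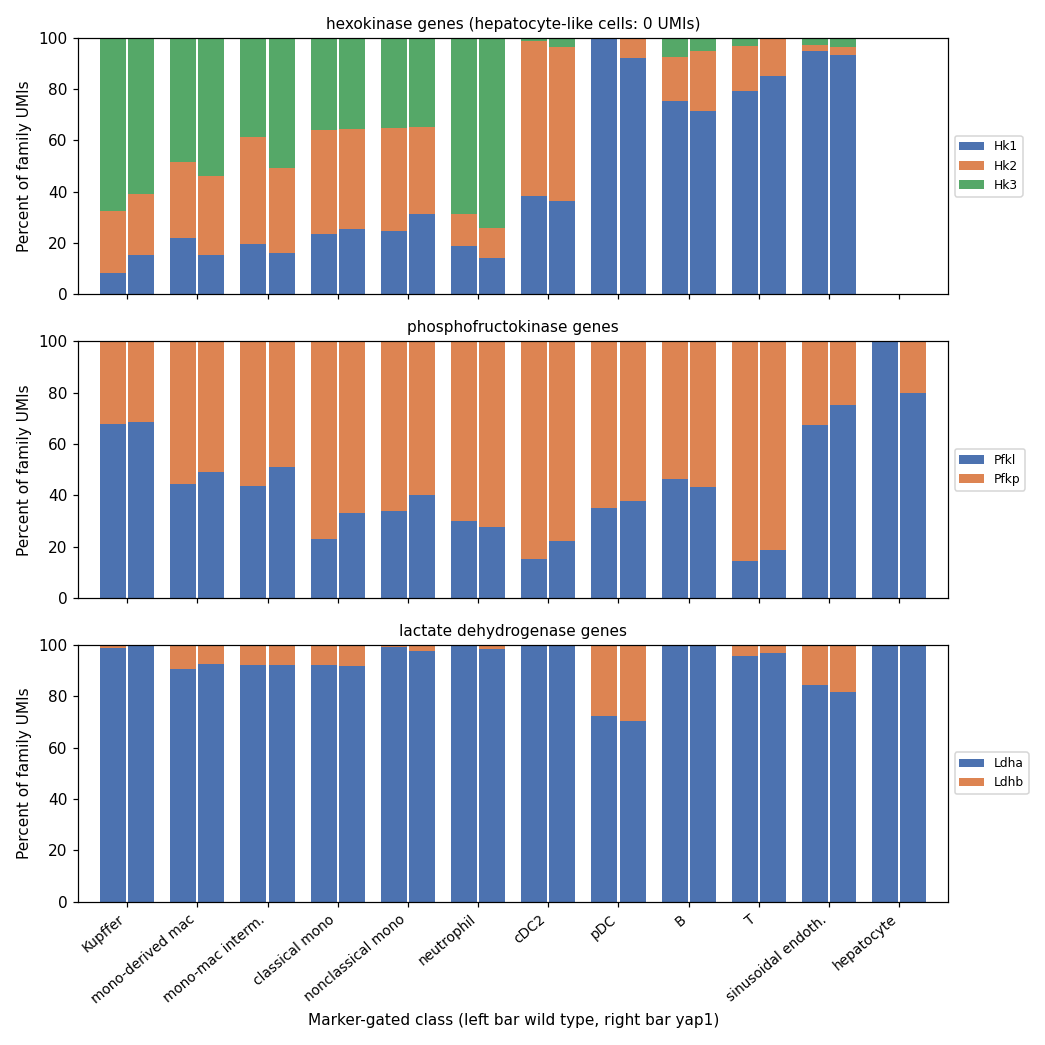
Share of each isozyme gene among the UMIs of its family (y axis, percent) in 12 classes, with the wild-type bar on the left and the yap1 bar on the right. Hk1 fills the bars of plasmacytoid dendritic and endothelial cells, Hk3 leads in Kupffer cells and neutrophils, and Ldhb is visible mainly in plasmacytoid dendritic and sinusoidal endothelial cells.

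Below the split of fructose bisphosphate, hepatocytes had the highest levels of 4 of the reversible enzymes. Triose phosphate isomerase, Tpi1, was at 737 and 761 CPM in hepatocytes and at 221 CPM in the next wild-type class, Kupffer cells. Gapdh was at 2558 and 2718 CPM in hepatocytes and between 486 and 1745 CPM elsewhere. Pgk1, the phosphoglycerate kinase, was at 119 and 145 CPM, and Pgam1, the mutase, at 347 and 494 CPM, where the wild-type interval overlapped that of classical monocytes. Eno1, the enolase, was highest in classical monocytes (311 and 556 CPM), followed by hepatocytes (271 and 520 CPM) with overlapping intervals. These 5 enzymes work in both directions and serve glucose synthesis as well as glycolysis. Pkm, the muscle-type pyruvate kinase gene, which acts in the glycolytic direction only, showed the opposite picture. It was at 32.5 and 3.29 CPM in hepatocytes, from 9 and 1 UMIs, against 695 and 704 CPM in neutrophils and 654 and 657 CPM in classical monocytes. Aldoa, the aldolase, was likewise low in hepatocytes, at 97.5 and 75.8 CPM, and highest in classical monocytes, at 517 and 565 CPM, although its intervals overlapped those of other myeloid classes in both libraries. Gpi1, the isomerase after hexokinase, was highest in neutrophils at 489 and 449 CPM. Eno2, the neuronal enolase, reached no more than 7 UMIs over both libraries in any class and is the only one of the 33 that passed the minimum of 20 UMIs in no class. Aldoc, the brain-type aldolase, had at most 35 UMIs in a class of 1 library.

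Lactate handling separated the classes most. Slc16a3, the monocarboxylate transporter MCT4 that exports lactate from glycolytic cells, was at 894 CPM in wild-type and 858 CPM in yap1 neutrophils. Nonclassical monocytes followed at 243 and 254 CPM, classical monocytes at 141 and 113 CPM and monocyte-derived macrophages at 37.6 and 27.1 CPM, while B cells had 2.12 and 2.46 CPM. A UMI of Slc16a3 was found in 76.8% and 72.6% of neutrophils and in 0.856% and 1.197% of B cells. With cells thinned to 1000 UMIs, the shares, with 47 and 67 shallower neutrophils left out, were 56.5% (203 of 359) and 50.5% (197 of 390) in neutrophils and 0.235% and 0.110% in B cells. The unthinned median depths were 2849.5 and 3017 UMIs in neutrophils and 3659 and 4411 UMIs in B cells, so the class with fewer UMIs per cell had the higher share.

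Ldha encodes the lactate dehydrogenase subunit that favours lactate formation, and Ldhb the subunit that favours its use. Ldhb was at 97.3 CPM (109 UMIs) in wild-type and 99.6 CPM (92 UMIs) in yap1 plasmacytoid dendritic cells, where it gave 27.5% and 29.6% of the UMIs of both genes. In sinusoidal endothelial cells it was at 57.1 and 63.1 CPM and gave 15.4% and 18.2%. The share was 7.70% and 8.32% in classical monocytes and 0.245% and 0.177% in B cells, and type 2 conventional dendritic cells had 0 UMIs of Ldhb beside 341 and 292 of Ldha. Ldha itself was highest in hepatocytes, at 1214 and 1245 CPM, followed by 391 CPM in wild-type type 2 conventional dendritic cells and 378 CPM in yap1 Kupffer cells. Of the distinct stretches of 50 bases near the 3′ ends of its transcripts, Ldhb shares 29.2% with another annotated gene, so its UMIs are less certain than those of Slc16a3, which shares 0%.

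Of the oxygen-sensing genes, Hif1a was detected in every class and was highest in wild-type T cells at 147 CPM and in yap1 neutrophils at 142 CPM. The 2 prolyl hydroxylase genes in this set, Egln1 and Egln3, differed in where they were found. Egln2, another prolyl hydroxylase gene, was counted with the further genes of the HIF machinery and is not part of the shares given here. It had 890 and 609 UMIs (172 and 136 CPM) in B cells, where Egln1 had 129 and 138 UMIs. In neutrophils Egln2 had 30 and 46 UMIs and Egln1 18 and 25. Egln1, which encodes the main oxygen sensor, was highest in sinusoidal endothelial cells at 65.1 and 76.5 CPM, with T cells next in the wild-type library at 56.6 CPM. Egln3, itself a target of HIF-1, had 50.0% and 49.0% of the UMIs of both genes in neutrophils, from 18 and 24 UMIs, and 0% in Kupffer cells, from 0 of 24 and 0 of 14 UMIs.

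The HIF target genes did not share 1 pattern. Adm, the vasodilator adrenomedullin, was at 81.1 CPM (122 UMIs) in wild-type and 99.3 CPM (96 UMIs) in yap1 sinusoidal endothelial cells. The next class, Kupffer cells, had 6 UMIs in each library, and neutrophils, nonclassical monocytes, hepatocytes and the monocyte-macrophage intermediates had 0 in both. For neutrophils, 0 UMIs allow levels up to 2.14 and 1.92 CPM. A UMI of Adm was found in 16.4% and 19.0% of endothelial cells (median depth 2255 and 2198.5 UMIs) and in 0.467% and 0.871% of the deeper B cells, and after thinning in 9.09% and 8.73% against 0.235% and 0.548%. Markers of sinusoidal endothelial cells summed to 456 and 567 CPM in Kupffer cells, against 20955 and 22278 CPM in the endothelial class, and their part in the Adm of Kupffer cells was not tested. Ndrg1, a stress-induced gene of cell differentiation, was also highest in sinusoidal endothelial cells, at 278 and 175 CPM, with classical monocytes next at 84.6 and 91.2 CPM and Kupffer cells at 1 and 0 UMIs.

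Hilpda, which binds to lipid droplets and blocks the lipase that empties them, was highest in monocyte-derived macrophages at 131 CPM in the wild-type and 123 CPM in the yap1 library, followed by B cells at 79.6 and 85.6 CPM. Its UMIs came from few macrophages: the 5 cells with most held 157 of 332 UMIs in the wild-type library and 179 of 526 in the yap1 library, whereas the 5 leading B cells held 61 of 413 and 40 of 383. Bnip3, a mitochondrial protein that drives mitophagy, was at 134 and 79.1 CPM in hepatocytes and 36.3 and 54.5 CPM in neutrophils. P4ha1, a collagen prolyl hydroxylase, was at 89.7 and 79.7 CPM in sinusoidal endothelial cells and 83.0 and 55.7 CPM in Kupffer cells, and the intervals of these classes overlapped. Pdk1, which keeps pyruvate out of the mitochondria, was at 42.5 and 31.0 CPM in endothelial and 30.2 and 31.4 CPM in T cells. Ero1l, an oxidase of protein folding, was highest in neutrophils at 39.9 and 50.0 CPM, and Ankrd37 was at 16.4 and 25.0 CPM there and at 21.01 and 24.4 CPM in B cells. Mif, a cytokine and a HIF target, was at 654 and 682 CPM in hepatocytes.

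**Figure D3:**
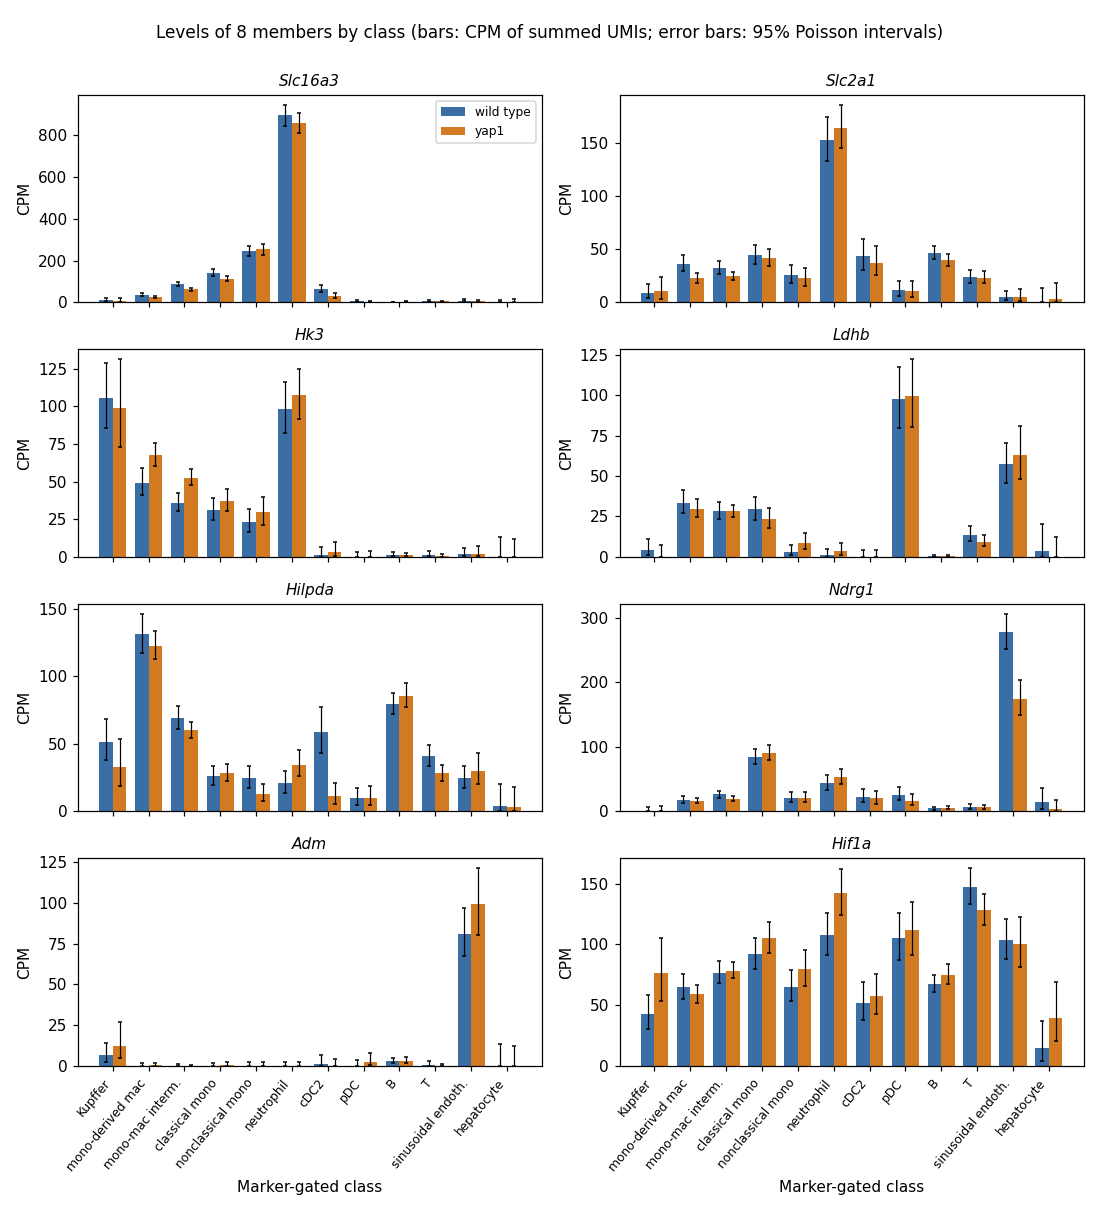
CPM of 8 genes (y axes, each from 0) in 12 classes, wild type in blue and yap1 in orange, with 95% Poisson intervals of the counts. Slc16a3 and Slc2a1 peak in neutrophils, Ldhb in plasmacytoid dendritic cells, Hilpda in monocyte-derived macrophages, and Ndrg1 and Adm in sinusoidal endothelial cells, in both libraries.

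The sequences before the start sites of 6 of these genes are shown because their levels separate neutrophils (Slc16a3, Slc2a1), endothelial cells (Adm), hepatocytes (Ldha) and macrophages (Hilpda), or, for Eno1, differed between the libraries. They are the 250 bases before the annotated start in RefSeq's GRCm38.p6 annotation, with the core of the HIF binding motif in capitals: ACGTG or GCGTG, or CACGT or CACGC where it lies on the other strand.
Slc16a3, chr11:120948817-120949066, plus strand: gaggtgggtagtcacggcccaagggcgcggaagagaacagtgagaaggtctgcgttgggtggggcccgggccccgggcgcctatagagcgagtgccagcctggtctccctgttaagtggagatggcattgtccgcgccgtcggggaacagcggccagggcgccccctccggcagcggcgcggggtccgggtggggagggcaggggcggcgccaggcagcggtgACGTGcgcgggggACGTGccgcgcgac
Slc2a1, chr4:119108495-119108744, plus strand: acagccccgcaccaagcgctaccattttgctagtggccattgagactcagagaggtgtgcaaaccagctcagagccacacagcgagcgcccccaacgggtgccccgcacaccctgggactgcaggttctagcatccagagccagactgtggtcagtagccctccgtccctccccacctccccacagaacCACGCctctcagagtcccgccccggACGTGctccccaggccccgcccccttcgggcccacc
Adm, chr7:110627407-110627656, plus strand: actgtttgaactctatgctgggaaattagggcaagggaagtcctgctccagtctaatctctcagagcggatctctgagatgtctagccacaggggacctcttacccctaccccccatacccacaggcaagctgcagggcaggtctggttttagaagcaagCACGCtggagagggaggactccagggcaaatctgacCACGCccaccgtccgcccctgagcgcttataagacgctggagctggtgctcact
Ldha, chr7:46845554-46845803, plus strand: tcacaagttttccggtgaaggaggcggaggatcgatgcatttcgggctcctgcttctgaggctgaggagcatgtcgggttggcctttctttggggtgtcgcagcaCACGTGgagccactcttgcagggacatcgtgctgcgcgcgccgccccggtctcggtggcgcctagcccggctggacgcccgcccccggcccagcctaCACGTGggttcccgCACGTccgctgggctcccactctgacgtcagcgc
Hilpda, chr6:29272376-29272625, plus strand: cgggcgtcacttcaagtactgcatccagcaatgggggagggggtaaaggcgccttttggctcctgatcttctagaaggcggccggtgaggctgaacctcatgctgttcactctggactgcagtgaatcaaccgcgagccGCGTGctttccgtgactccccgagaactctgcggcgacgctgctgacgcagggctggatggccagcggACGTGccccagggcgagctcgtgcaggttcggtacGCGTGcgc
Eno1, chr4:150236974-150237223, plus strand: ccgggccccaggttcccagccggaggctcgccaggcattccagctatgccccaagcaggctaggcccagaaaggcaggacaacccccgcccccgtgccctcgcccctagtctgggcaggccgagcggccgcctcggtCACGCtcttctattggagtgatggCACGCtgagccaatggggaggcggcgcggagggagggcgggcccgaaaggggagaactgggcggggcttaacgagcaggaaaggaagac
Ldha, Hilpda and Eno1 have 2, 2 and 3 annotated starts, of which 1 is shown. Slc16a3 holds ACGTG at positions -27 and -14 relative to the start. Adm holds 2 GCGTG cores on the other strand, at -90 and -54, and the Ldha window holds 5 matches at 3 places, 2 of which are the palindrome cacgtg and match on both strands. RefSeq start sites were matched for 32 of the 33 genes, with 43 promoters of 300 bases each, from 250 bases before to 50 bases after the start. Of these, 36 (83.7%) hold at least 1 of the cores, against 43.8% of all 32851 promoters of that length. ACGTG alone, on either strand, is in 55.8% of the 43 and in 19.6% of all. Matches that overlap or lie on both strands were counted separately. A match is a description of the letters and was not tested as a binding site.

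Levels were then compared between the libraries within each class, to see whether these genes moved with the deletion of Yap1 in myeloid cells. A gene entered when it had at least 20 UMIs over both libraries in a class, which 301 of the 396 pairs of gene and class did, and a ratio of yap1 over wild type of at least 1.5, or at most its inverse, was counted as past the fold. Of the 301 pairs, 42 (13.95%) were past the fold, against 16.2% of all 92611 pairs of any gene and class. Eno1 accounted for 11 of the 42. Without it, 31 of 289 pairs (10.7%) were past the fold, and in 17 of these the counting interval lay clear of 1, 7 higher and 10 lower in the yap1 library.

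By class, the share of the genes past the fold was above that of all genes in both dendritic cell classes and in T cells. It was under that share in the other classes. Here and in the pooled counts above, the background is all genes with at least 20 UMIs, not matched to the 33 for UMIs per gene. In Kupffer cells 4 of 18 genes passed, with 23.4% of all genes past the fold there. The count was 4 of 30 in monocyte-derived macrophages (all genes 13.8%), 2 of 31 in the intermediates (11.9%), 1 of 29 in classical monocytes (14.7%) and 4 of 27 in nonclassical monocytes (16.1%). In these 5 myeloid classes the share of the genes past the fold was under or close to that of all genes. In neutrophils 4 of 28 passed (all genes 26.8%), all 4 higher in the yap1 library, where 20.9% of all genes were higher past the fold. The counts were, in type 2 conventional dendritic cells 6 of 24 (25.0%, all genes 21.0%) and in plasmacytoid dendritic cells 5 of 23 (21.7%, all genes 16.0%). The lymphocytes had 3 of 29 in B cells (all genes 11%) and 4 of 28 in T cells (14.3%, all genes 12.9%). Sinusoidal endothelial cells had 3 of 24 (all genes 15.4%) and hepatocytes 2 of 10 (all genes 27.7%). The median log2 ratio of the genes lay between -0.08 and 0.22 over the classes. Its highest value, 0.22 in neutrophils, stood beside a median of 0.19 over all genes of that class. The neutrophil markers took 260665 CPM of the wild-type and 208824 CPM of the yap1 neutrophils, and scaling by the median of ratios in place of the total shifted all neutrophil ratios by -0.17 on the log2 scale.

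**Figure D4:**
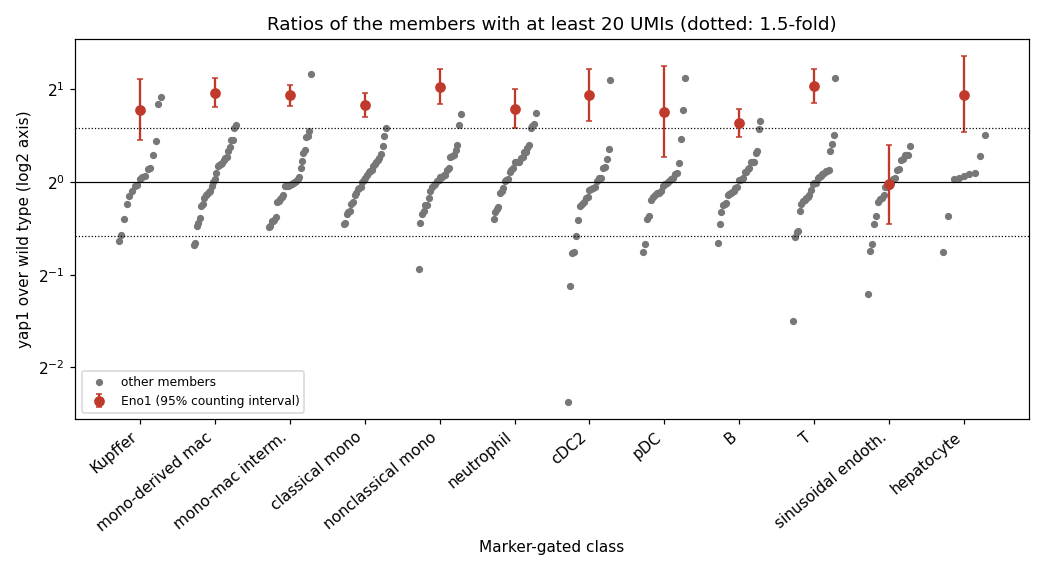
Ratio of yap1 over wild type (log2 axis) for each gene with at least 20 UMIs in a class (grey points, sorted within the class) and for Eno1 (red, with its 95% counting interval), with dotted lines at 1.5-fold. Eno1 lies above the upper dotted line in 11 of 12 classes and at 0.98 in sinusoidal endothelial cells.

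Eno1, the ubiquitous enolase that makes phosphoenolpyruvate, was higher in the yap1 library in 11 of 12 classes. In monocyte-derived macrophages it was at 173 CPM (437 UMIs) in the wild-type and 336 CPM (1441 UMIs) in the yap1 library, a ratio of 1.95 with an interval of 1.75 to 2.17. In classical monocytes the levels were 311 and 556 CPM (ratio 1.78), in nonclassical monocytes 227 and 463 CPM (2.04) and in the intermediates 206 and 394 CPM (1.91). Classes outside the myeloid lineage showed it as well. T cells had 132 and 270 CPM (2.05), B cells 120 and 187 CPM (1.55), plasmacytoid dendritic cells 54.5 and 92.0 CPM (1.69) and hepatocytes 271 and 520 CPM (1.92). Kupffer cells had 179 and 307 CPM (1.72), neutrophils 207 and 358 CPM (1.73) and type 2 conventional dendritic cells 187 and 357 CPM (1.91). Sinusoidal endothelial cells were the exception, at 83.1 CPM (125 UMIs) and 81.7 CPM (79 UMIs), a ratio of 0.98 with an interval of 0.73 to 1.31, which overlapped that of plasmacytoid dendritic cells, 1.202 to 2.39. With cells thinned to 1000 UMIs, 6 of the 11 classes were still past the fold. The ratio was then 1.48 in Kupffer cells, 1.49 in neutrophils, 1.46 in B cells, 1.17 in monocyte-derived macrophages, from 47 and 79 UMIs, and 0.919 in plasmacytoid dendritic cells, from 5 and 3 UMIs. Markers of red cells differed between the libraries in some of these classes, at 105 and 11783 CPM in hepatocytes, 14.9 and 2045 CPM in classical monocytes, 24.7 and 671 CPM in the intermediates, 164 and 405 CPM in endothelial cells, and 15.2 to 70.2 CPM in the other 8. In hepatocytes, markers of cycling cells were at 1434 and 3126 CPM. Their part in the ratios of Eno1 and of the other genes in these classes was not tested.

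Eno1 has near-identical copies in the genome, and the sources used here do not say how the reads were counted. Of the distinct 50-base stretches near its 3′ ends, 39.8% also occur in another annotated gene, mainly Eno1b (38.7%) and Gm4735 (30.4%), the latter without a row in the files. Eno1b had 0 to 9 UMIs per class and library, and adding it to Eno1 left the ratio at 1.95 in monocyte-derived macrophages. Gm3839, a row that shares 29.6% of the stretches of Gapdh, moved the other way in all 12 classes. It had 96 UMIs (37.9 CPM) in wild-type and 11 UMIs (2.57 CPM) in yap1 monocyte-derived macrophages, a ratio of 0.068, and its ratios ran from 0.055 in classical monocytes to 0.34 in hepatocytes. Gapdh, with many more UMIs, had ratios between 0.80 and 1.14.

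Shared sequence went with differences between the libraries over all genes too. Among genes with at least 100 UMIs in a class, those that share 30% or more of their stretches with another gene were past the fold in 14.8% to 22.7% of cases, depending on the class, and the others in 3.09% to 15.1%. In B cells the shares were 19.7% and 3.09%, and in neutrophils 17.01% and 15.1%. Of the 1877 genes with at least 20 UMIs in all 12 classes, 12 including Eno1 were higher past the fold in at least 11 classes and 10 were lower in as many. Of these 22, 5 of the 12 and 8 of the 10 share 30% or more of their stretches, against 148 of the 1877. Pgk1, Pgam1, Pkm, Gapdh and Mif also share over 30%, at 40%, 45.3%, 32.0%, 42.8% and 37.2%. The part of shared sequence in the ratio of Eno1 and of these genes was not tested.

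**Figure D5:**
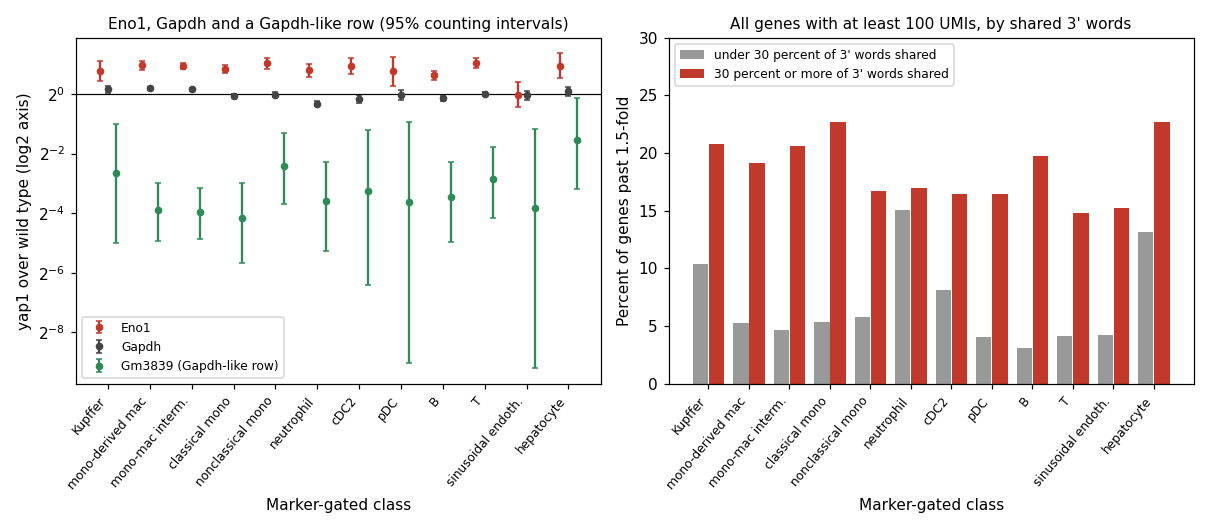
Left, ratio of yap1 over wild type (log2 axis) with 95% counting intervals for Eno1, Gapdh and the Gapdh-like row Gm3839 in 12 classes; Gm3839 lies at 0.055 to 0.34 in all of them. Right, percent of all genes with at least 100 UMIs that were past 1.5-fold, split by the share of their 3′ stretches found in another gene; the bar for 30% or more is the higher in every class, by least in neutrophils (17.01% and 15.1%).

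Among the other glycolytic enzymes, Pgk1 was past the fold in B cells (13.5 and 21.2 CPM, ratio 1.57), monocyte-derived macrophages (24.9 and 38.0 CPM, 1.53) and nonclassical monocytes (31.6 and 48.3 CPM, 1.53), and each interval lay clear of 1. None of these 3 calls held under all alternatives. With cells thinned to 1000 UMIs the ratio was 1.48 in B cells and 0.469 in nonclassical monocytes, from 8 and 3 UMIs, and with a gate that asked for a smaller lead of the best marker list it was 1.33 in monocyte-derived macrophages. Pgam1 stayed under the fold, although its interval lay above 1 in monocyte-derived macrophages (279.5 and 364 CPM, 1.30), the intermediates (235 and 329 CPM, 1.40), hepatocytes (347 and 494 CPM, 1.42), neutrophils, nonclassical monocytes and classical monocytes. In total, the 18 genes of uptake and glycolysis summed to 3394 and 3944 CPM in monocyte-derived macrophages, a ratio of 1.16, and to 1851 and 2049 CPM without Gapdh and Eno1, a ratio of 1.11. Over the 12 classes the ratio of this sum lay between 0.96 and 1.16. These sums of genes by role, and the sums that leave genes out, were formed after values had been seen.

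Lactate handling was lower in yap1 classical monocytes, where Ldha, Ldhb, Slc16a3 and Pdk1 summed to 529 and 402 CPM, a ratio of 0.76. Ldha made up most of it, at 351 and 260 CPM (827 and 683 UMIs, ratio 0.74, interval 0.67 to 0.82). The sum of the 4 genes was also lower, with an interval clear of 1, in classes within and outside the myeloid lineage. These were type 2 conventional dendritic cells (0.81), B cells (0.83), T cells (0.89) and neutrophils (0.92). In the remaining classes its interval included 1. In monocyte-derived macrophages Ldha was at 322 and 367 CPM (1.14, 1.05 to 1.24). Slc16a3 was at 86.6 and 61.8 CPM in the intermediates, a ratio of 0.71 with an interval of 0.62 to 0.83, and its ratio in neutrophils was 0.96 (0.89 to 1.04). None of these changes reached 1.5-fold. Slc2a1 in monocyte-derived macrophages did, at 36.0 and 22.9 CPM (91 and 98 UMIs, ratio 0.64, 0.47 to 0.85), but at 0.70 once the 5 cells richest in it were left out of each library. Just under the fold were Mif there (195 and 291 CPM, 1.49), Pgk1 in classical monocytes (57.4 and 85.9 CPM, 1.498) and Bnip3 in neutrophils (36.3 and 54.5 CPM, 1.498).

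Among the hypoxia response genes, Ndrg1 in sinusoidal endothelial cells rested on the most UMIs. It was at 278 CPM (419 UMIs) in the wild-type and 175 CPM (169 UMIs) in the yap1 library, a ratio of 0.63 with an interval of 0.52 to 0.75, and 41.8% and 34.8% of the cells held a UMI of it, against 1.63% and 2.18% of B cells. With cells thinned to 1000 UMIs the shares were 22.2% and 15.9%, against 0.157% and 0.438%. Under all 11 alternatives of processing the ratio lay between 0.61 and 0.69, the latter with cells weighted equally and just under the fold. Bnip3 was also lower in these cells, at 23.9 and 10.3 CPM, from only 36 and 10 UMIs (0.43), but at 1.12 after thinning, from 5 and 4 UMIs, while Adm was at 81.1 and 99.3 CPM with an interval that included 1 (1.22, 0.93 to 1.61). Ndrg1 and Adm, both highest in these cells, therefore had ratios on opposite sides of 1. The endothelial marker list stood at 20955 and 22278 CPM, and hepatocyte markers at 238 and 263 CPM, in the same cells.

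In neutrophils, the hypoxia response genes without Mif summed to 300.03 and 406 CPM, a ratio of 1.35 (1.19 to 1.53). This was the highest of the 12 classes. The lowest was 0.78 in hepatocytes (0.52 to 1.17), and the sum was lower with an interval clear of 1 in sinusoidal endothelial cells (0.86), T cells (0.89) and the intermediates (0.91). With Mif included, the ratio was 1.32 in neutrophils and 0.90 in endothelial cells (0.81 to 0.99). It was then 1.11 in T cells (1.03 to 1.19), on the other side of 1, and 1.05 in the intermediates (0.99 to 1.11). Kupffer cells (1.22), monocyte-derived macrophages (1.14) and B cells (1.07) then also lay above 1 with intervals clear of it. In neutrophils, Hilpda was at 20.7 and 34.6 CPM (29 and 54 UMIs, 1.67, 1.05 to 2.73), and P4ha1 (14 and 24 UMIs, 1.54) and Ankrd37 (23 and 39 UMIs, 1.52) had intervals that included 1. With the median of ratios, Eno1 alone of the 28 genes was past the fold, at 1.54, and Hilpda was at 1.49. With the looser marker gate Hilpda was at 1.22, and with cells thinned to 1000 UMIs at 3.45, from 4 and 15 UMIs. Hif1a was at 108 and 142 CPM (1.32) and Slc16a3 and Slc2a1, the genes that set neutrophils apart, had ratios of 0.96 and 1.08.

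Type 2 conventional dendritic cells were few, 66 and 59, and held 6 genes past the fold. Hilpda was at 58.5 CPM (51 UMIs) and 11.3 CPM (10 UMIs), a ratio of 0.19 with an interval of 0.09 to 0.39, and was found in 36.4% and 10.2% of the cells. After thinning 4 of 66 and 2 of 59 cells held a UMI of it. Slc16a3 was at 64.2 and 29.5 CPM (0.46), Pfkp at 160.5 and 95.2 CPM (0.59) and Egln1 at 48.1 and 28.3 CPM (0.59). P4ha1 moved the other way, from 12 to 26 UMIs (2.14). All 5 intervals lay clear of 1, but 5 cells held 47.1% of the wild-type and 90.0% of the yap1 Hilpda UMIs, and after thinning the ratio of Hilpda was 0.559, from 4 and 2 UMIs. Slc16a3 was at 0.695 with the looser marker gate, and Egln1 at 0.715 once the 5 cells richest in it were left out of each library, both under the fold.

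The remaining differences past the fold rested on low counts. Hif1a in Kupffer cells was at 42.6 and 76.4 CPM (39 and 37 UMIs, 1.79) and at a ratio of 0.876 after thinning, from 14 and 6 UMIs. P4ha1 in B cells was at 20.04 and 12.7 CPM (104 and 57 UMIs, 0.64) and at a ratio of 0.898 after thinning. Egln3 (16 and 7 UMIs, 0.35) and Ankrd37 (10 and 27 UMIs, 2.18) in T cells and Hilpda in nonclassical monocytes (38 and 19 UMIs, 0.52) had intervals clear of 1 and changed direction after thinning, where 3 or 4 UMIs per library were left.

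Genes of the same pathways outside the 33 were described from 5 lists. Of 39 further HIF targets, 28 had enough UMIs in monocyte-derived macrophages, of which 4 were higher and 4 lower past the fold (28.6%, all genes 13.8%). Over all genes of that class, 7.86% were higher and 5.94% lower past the fold. Arg1, the arginase of alternatively activated macrophages, was at 212 and 71.6 CPM there (537 and 307 UMIs, 0.34). Angptl4, an inhibitor of lipoprotein lipase, was at 7.12 and 15.4 CPM (2.16). Arg1 was also lower in classical monocytes, with 91 and 9 UMIs (0.0885), and higher in nonclassical monocytes, with 10 and 62 UMIs (6.46). The spread of these Arg1 UMIs over single cells was not examined, and the difference between the classes was not tested. In type 2 conventional dendritic cells 1 of 18 was higher and 6 were lower (38.9%, all genes 21.0%, 8.6% higher and 12.4% lower), with a median log2 ratio of -0.25 beside -0.05 over all genes. Cdkn1a, an inhibitor of the cell cycle, was lower there (331 and 188 CPM, 0.57), in nonclassical monocytes (298 and 162 CPM, 0.54) and in sinusoidal endothelial cells (138 and 67.2 CPM, 0.49), where the heme oxygenase gene Hmox1 was at 112 and 55.9 CPM (0.50). In neutrophils Tgm2, a transglutaminase, was at 159 and 391 CPM (2.46) and Higd1a, a mitochondrial gene, at 16.4 and 32.0 CPM (1.95). The share of these HIF targets past the fold was also above that of all genes in T cells (28.6%, all genes 12.9%) and plasmacytoid dendritic cells (27.8%, all genes 16.0%). The same held in sinusoidal endothelial cells (25.0%, all genes 15.4%), nonclassical monocytes, B cells and the intermediates. It was under that of all genes in Kupffer cells, classical monocytes, neutrophils and hepatocytes.

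Each count of the other lists stands beside a share of all genes past the fold of 11% to 27.7%, depending on the class. Of the 7 genes of the pentose phosphate pathway, all 7 had enough UMIs in 11 classes and 3 in hepatocytes. None was past the fold in Kupffer cells, monocytes, macrophages, the intermediates, neutrophils and B cells, and no more than 2 were in any class. Intervals lay below 1 for 4 of the 7 in neutrophils, 3 in B cells and 2 in the intermediates. They lay below 1 for 1 gene each in monocyte-derived macrophages and type 2 conventional dendritic cells, and above 1 for 1 gene each in Kupffer cells and classical monocytes. The median log2 ratio was -0.21 in neutrophils, -0.22 in B cells and 0.30 in Kupffer cells, beside 0.19, -0.02 and -0.01 over all genes. Of 15 further genes of the HIF machinery with a row in the files, 6 to 13 had enough UMIs per class and 0 to 2 of them were past the fold. Among 15 genes of sugar uptake and upper glycolysis, Adpgk, a kinase that uses ADP to phosphorylate glucose, was lower in classical monocytes (17.4 and 7.22 CPM, 0.41) and neutrophils (150.4 and 95.5 CPM, 0.63). Among 19 genes of lower glycolysis and lactate, 13 had enough UMIs in monocyte-derived macrophages. Of these 13, 4 (30.8%) were higher past the fold in the yap1 library (Bpgm, Pdk2, Pdk3 and Slc16a7) and 0 were lower. Over all genes there, 7.86% were higher past the fold. The 4 ratios were 1.502 to 1.69, with intervals that included 1, and Bpgm and Pdk2 are named after their values were seen. The MCT chaperone Bsg was higher in neutrophils (54.9 and 87.8 CPM, 1.60) and lower in hepatocytes (556 and 359 CPM, 0.65), and Pgam2 was lower in plasmacytoid dendritic cells (217 and 119 CPM, 0.55).

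The genes whose pattern was most like that of a listed gene were found by Spearman's rho over the 24 levels of 12 classes in 2 libraries, among 8245 genes. Myd88 was nearest to Slc16a3 (0.96), Kdm7a to Slc2a1 (0.93), Nlrx1 to Pkm (0.95) and Snx20 to Gpi1 (0.95). Hivep3 was nearest to Ldhb (0.89), Mmp12, a macrophage elastase and 1 of the macrophage markers, to Hilpda (0.80), and Csnk1e to Ndrg1 (0.87). Pgam1 was the second nearest to Eno1 (0.74) and Gapdh the second nearest to Pgk1 (0.85). The 24 levels share their libraries and depths, and rho describes the order of classes only.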

How the data were processed

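Droplet single-cell RNA was measured in 1 library per genotype. The values used are counts: the deposited matrices hold whole numbers of UMIs per gene and barcode with no scaling, as the authors' files themselves show. The submitters' processing notes name mm10, Bowtie 0.12.2 and Seurat without giving their roles, and the counting program, annotation, strand setting and barcode selection are not stated there. With no strand setting, reads of a gene and an antisense partner cannot be told apart. The 33 genes and the gene lists were chosen with earlier results of these data known.

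Barcodes needed 500 or more UMIs and 200 or more detected genes, with mitochondrial UMIs no higher than 20%, to be kept (4847 of 5269 and 4149 of 4731 barcodes). The automatic threshold of Scrublet (run through scanpy 1.11.5) marked under 0.5% of the cells and was not used, so the 4% of cells with the highest doublet scores, 194 and 166, were left out, which may leave doublets in. Each cell was gated on 19 marker lists, with markers weighted by minus the logarithm of the share of cells that hold them: the best list needed at least 3 markers and 1.5 times the score of the next. Cells with both leading lists among classical monocytes, nonclassical monocytes and monocyte-derived macrophages form the intermediate class, and 362 and 256 cells were unassigned. This gate and the intermediate class, the role sums, the 30% limit on shared stretches with its minimum of 100 UMIs and the count of 11 classes were set after the data were seen.

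UMIs were summed per library and class and divided by the class total (CPM, pandas 2.3.3, numpy 2.4.6). Intervals are 95%: exact Poisson for a level, exact conditional binomial for a ratio and Clopper-Pearson for a share (scipy 1.17.1). A count of 0 is given as allowing up to 3 UMIs. Ratios and their intervals were tried on simulated Poisson counts with set ratios. Such counts leave out the uneven spread of UMIs over cells, so the intervals were not tested against it. Shared stretches are the 50-base words of the last 500 bases of each transcript that occur in another annotated gene. Genes named beyond the 33 come from 5 lists, up to 3 per list and class with the largest size of log2 ratio and at least 50 UMIs, from the check of near-identical copies, and, for likeness, from the 3 leading genes by Spearman's rho among genes with at least 200 UMIs in each library. Alternatives changed the doublet step, the filter, the gate, the scaling, the UMI minimum, the thinning and the weight of single cells.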

Additional observations from a re-analysis of the deposited data

Results flagged for a closer look

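For 7 of the genes the ratio of yap1 over wild type lay above 1 in a class and below 1 in another, with both counting intervals clear of 1. With 1 library per genotype the difference between the classes was not tested, and the classes were picked as the extremes of 12. Tpi1 had a ratio of 1.2045 in monocyte-derived macrophages and 0.669 in type 2 conventional dendritic cells. Gapdh was at 1.14 in monocyte-derived macrophages and 0.798 in neutrophils, where the scaling differed. Pkm was at 1.23 in Kupffer cells and 0.752 in type 2 conventional dendritic cells. Ldha was at 1.14 in monocyte-derived macrophages and 0.739 in classical monocytes. Bnip3 was at 1.498 in neutrophils and 0.432 in sinusoidal endothelial cells. P4ha1 was at 2.14 in type 2 conventional dendritic cells, from 12 and 26 UMIs, and 0.636 in B cells. Hilpda was at 1.67 in neutrophils, but 1.22 with a looser marker gate, and 0.194 in type 2 conventional dendritic cells.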

How the results depend on the processing

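No paired analysis was possible because the labels give no replicate numbers and each genotype has 1 library, and no library could be left out. Of 307 recomputed summary values, 273 stayed within the limits set for them, 34 moved and 0 reversed, and of 318 recomputed ratios of single genes 297 stayed, 13 moved and 8 reversed. The counts of genes past the fold that moved by over 1.5 times were as follows. With cells thinned to 1000 UMIs the count was 2 in Kupffer cells, 2 in monocyte-derived macrophages, 6 in the intermediates, 5 in classical monocytes, 1 in nonclassical monocytes, 2 in type 2 conventional and 3 in plasmacytoid dendritic cells. With a minimum of 100 UMIs it was 2 in nonclassical monocytes and type 2 conventional dendritic cells and 1 in Kupffer cells, the intermediates, neutrophils, plasmacytoid dendritic cells, T cells, endothelial cells and hepatocytes, with fewer genes tested. Of all genes at that minimum, 14.8% to 22.7% passed, by class, where 30% or more of their stretches are shared. Of the others, 3.09% to 15.1% passed. Without a minimum the count was 8 in Kupffer cells, 3 in classical and 7 in nonclassical monocytes, 10 in type 2 conventional dendritic cells, 6 in endothelial cells and 7 in hepatocytes. With cells weighted equally it was 7 in monocyte-derived macrophages, 4 in the intermediates, 3 in classical monocytes and 5 in B cells. In classical monocytes it was also 2 with 1 more marker in the gate, 2 with the median of ratios, 2 with a restricted total and 3 without the 5 cells with most UMIs of the gene. It was 7 in Kupffer cells with a looser gate, 1 in neutrophils with the median of ratios, and 2 in neutrophils and 5 in endothelial cells with a stricter barcode filter. The cause of these moves was not tested beyond the number of genes. The ratios that reversed after thinning were Hif1a in Kupffer cells (0.876), Pgk1 (0.469) and Hilpda (1.252) in nonclassical monocytes, Eno1 in plasmacytoid dendritic cells (0.919), Egln3 (1.03) and Ankrd37 (0.771) in T cells and Bnip3 in endothelial cells (1.12), and Hilpda in nonclassical monocytes was also at 1.19 with the looser gate. The looser gate, which asked for a smaller lead of the best list, and the left-out cells were chosen after seeing the data. The number of genes highest in the same class in both libraries ranged from 20 to 29. Depth limits Kupffer cells and hepatocytes most, where 18 and 10 of the 33 genes reached 20 UMIs.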
